A study of Mus musculus with 8 samples.

Results

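The genes described here encode the protein machinery that removes introns from nuclear transcripts, together with the hnRNP proteins that coat those transcripts. They were chosen by gene symbol: every gene whose symbol in the platform annotation began with Snrp, Hnrnp, Sf3a or Sf3b, or with Lsm, Prpf or Srsf and a digit, without Snrpn. This gave 70 of the 18193 genes that a probe set with 1 gene symbol could name. These symbols are carried by 193 probe sets, and each gene was read by the 1 of its own with the highest average log2 signal across the 8 arrays. By role they comprised 8 Sm, U1 and U2 snRNP proteins, 9 subunits of SF3a and SF3b, 12 LSm proteins, 12 Prpf proteins, 10 SR proteins and 19 hnRNP proteins. All 70 were bright enough to be tested in ESC and 69 in HSC, where Srsf12 was near the floor of the arrays. Snrpd1, Snrpd2, Snrpa, Lsm5 and Hnrnpa3 are read only by probe sets that carry several symbols, so they are not among the 70.

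Transcript levels had been measured on Affymetrix Mouse Genome 430 2.0 arrays in 4 groups of 2, which compare cells with and without Zfx, an X-linked zinc finger transcription factor, in mouse embryonic stem cells (ESC) and blood-forming stem and progenitor cells (HSC). The ESC groups were clones with a floxed Zfx gene (Zfx-flox, the control) and clones in which it was inactivated (Zfx-null); both were kept on gelatin without feeder cells in medium with 15% Knockout serum replacement and LIF. The sources used here do not give how the null clones were made or how many clones an array represents. The HSC groups were Lin- Sca-1+ c-Kit+ cells sorted from pooled bone marrow of 4 to 6 mice, 4 days after the last injection of pI·C, which induces the Mx1 promoter. The Zfx-cko mice were Mx1-Cre+ Zfxflox/y and the controls (HSC Zfx-flox) were Cre- Zfxflox/y littermates, so both carried the floxed allele and only 1 group carried Cre; Mx1-Cre acts in many cell types of an injected mouse. ESC RNA had been amplified in 1 round from 2500 ng and HSC RNA in 2 rounds from 100 ng. The arrays of a group are described as duplicates, so the spread between them, on which every p-value here rests, may be technical.

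Introns are removed by the spliceosome, which assembles anew on each intron from the U1, U2, U4, U5 and U6 small nuclear ribonucleoproteins (snRNPs). U1 recognises the 5′ splice site and U2, through its SF3a and SF3b subunits, the branch site; the U4, U5 and U6 snRNPs then join as a tri-snRNP, and the Prp19 complex takes part in activation. SR proteins mostly bind exons and promote the use of nearby splice sites, whereas many hnRNPs bind introns or exons and repress them, so that the balance between the families sets which exons are used. In stem cells, choices of exon in regulators such as CD45 in blood cells and Foxp1 in ESC change with cell state.

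Promoters of the splicing genes were examined first, for the letters that make up the core of the known Zfx binding motif, AGGCCT, which reads the same on both strands, and for CCGGAA on either strand, the core bound by ETS factors; no match of 1 motif overlaps a match of the other in the sequences shown. RefSeq promoter sequences (GRCm38.p6; 250 bases before to 50 bases after a transcription start, 300 bases in all) were matched by symbol for 61 of the 70 genes, with 79 promoters. AGGCCT was present in 11 of the 79 promoters (13.9%), against 10.3% of all 32851 promoters in the table and 10.5% of the 14350 promoters of genes measured here. CCGGAA was present in 35 of 79 (44.3%), against 14.9% and 24.2%; the median GC content was 61.0% in the promoters of the splicing genes and slightly lower in those of the genes measured here. The share with CCGGAA was 48.6% of 35 promoters of genes that were lower in HSC without Zfx and 45.9% of 37 of genes that were not called there, and the share with AGGCCT was 14.3% and 13.5%. In ESC the order was reversed, with CCGGAA in 39.1% of 23 and 47.3% of 55, and AGGCCT in 13.0% and 14.5%. Among 14 promoters of genes lower in both cell types, 35.7% held CCGGAA and 7.14% AGGCCT. These matches describe letters in a window and do not show binding. The promoters of Prpf4b (chr13:34875279-34875578, plus strand), Prpf19 (chr19:10894981-10895280, plus strand) and Sf3a2 (chr10:80798485-80798784, plus strand) are shown because they hold both motifs and belong to genes that fell in HSC. The promoter of Prpf3 (chr3:95855704-95856003, minus strand), a gene that fell in both cell types, is shown because it holds CCGGAA or its complement 3 times and not AGGCCT. Prpf3 and Prpf19 each have another promoter in the table, with neither motif. Capitals mark the matches, and each sequence runs 5′ to 3′ on the strand of its gene.
Prpf4b: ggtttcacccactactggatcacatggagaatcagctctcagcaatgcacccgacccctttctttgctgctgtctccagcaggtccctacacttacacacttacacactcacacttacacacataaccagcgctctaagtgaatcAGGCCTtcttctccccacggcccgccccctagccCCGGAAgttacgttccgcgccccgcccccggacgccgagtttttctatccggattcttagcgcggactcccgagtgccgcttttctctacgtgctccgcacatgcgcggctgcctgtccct
Prpf19: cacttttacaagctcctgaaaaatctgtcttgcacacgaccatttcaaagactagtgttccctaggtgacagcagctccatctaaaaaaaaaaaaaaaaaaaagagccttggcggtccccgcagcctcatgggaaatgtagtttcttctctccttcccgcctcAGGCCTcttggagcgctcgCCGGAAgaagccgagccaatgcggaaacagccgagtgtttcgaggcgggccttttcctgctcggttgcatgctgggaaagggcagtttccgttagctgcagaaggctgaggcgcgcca
Sf3a2: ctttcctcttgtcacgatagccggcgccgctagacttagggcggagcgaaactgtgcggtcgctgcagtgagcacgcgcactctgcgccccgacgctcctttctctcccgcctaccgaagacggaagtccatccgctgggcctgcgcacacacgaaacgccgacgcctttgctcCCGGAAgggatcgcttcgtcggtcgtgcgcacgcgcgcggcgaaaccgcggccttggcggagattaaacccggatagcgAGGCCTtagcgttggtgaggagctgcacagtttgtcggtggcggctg
Prpf3: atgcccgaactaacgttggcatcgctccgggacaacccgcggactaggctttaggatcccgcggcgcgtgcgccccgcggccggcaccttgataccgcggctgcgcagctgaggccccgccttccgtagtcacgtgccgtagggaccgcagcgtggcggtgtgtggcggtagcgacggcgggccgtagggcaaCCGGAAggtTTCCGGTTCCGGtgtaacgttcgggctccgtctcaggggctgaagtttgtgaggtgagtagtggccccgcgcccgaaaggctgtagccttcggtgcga

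Before the splicing genes were compared, the deletion and the quality of the arrays were checked. A probe set annotated with both Zfx and Zfa-ps had signals of 285 and 298 in control ESC, against 1.32 and 0.878 in Zfx-null ESC. In HSC the same probe set was near the floor in both groups (7.22 and 0.971 in controls, 1.34 and 0.305 after deletion), so it could not check the HSC labels. The 4 probe sets with Zfx as their only symbol were all higher in Zfx-null ESC, with log2 changes of 0.79 (1425972_a_at), 1.54, 1.65 and 1.61. In HSC the first 3 gave 0.72, -0.49 and 0.05, of which the first passed the test, and the last was too dim to test. The sources used here do not give where any of them lies relative to the deletion, so they check nothing. The log2 ratio of 5′ to 3′ Gapdh probe sets was 0.377 to 0.437 on the ESC arrays, -4.18 and -4.25 in control HSC, and -4.68 and -4.39 after deletion in HSC, the lowest values of the 8. For actin the HSC groups overlapped, with -3.46 and -3.30 in controls, and -3.60 and -3.44 after deletion. Of the cell type markers, 4 of 7 ESC genes were lower in ESC Zfx-null (summed signal 32492 and 33584 with floxed Zfx, 20244 and 21050 without) and 5 of 7 fibroblast genes were higher (13227 and 13598, then 24866 and 26370). Among 5 blood progenitor genes in HSC, 4 were higher and Tal1 was lower in Zfx-cko (summed signal 6218 to 6336, then 10015 to 10322), while the erythroid and megakaryocyte list had 2 of 5 higher and 3 lower (summed signal 5075 to 5095, then 4719 to 4761). Of that list, Klf1, Gata1 and Epor of the red cell lineage had log2 changes of -2.52, -1.64 and -1.32, and Pf4 and Itga2b of the megakaryocyte lineage 1.85 and 0.95. Mast cell genes were higher in 2 of 4 tested (1655 to 1664, then 3141 to 3374), and 3 of 4 T and NK cell genes were below the pseudocount of 14.2 on all HSC arrays. Of the genes tested, the B cell list had 1 of 3 higher in HSC, the granulocyte and monocyte list 1 of 5 and the endoderm list 2 of 5, and 1 of 5 endoderm genes was higher in ESC. The part of these shifts in the results below was not tested; in bulk RNA, fewer cells of a type and less RNA per cell cannot be told apart.

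In ESC without Zfx, most of the spliceosome and hnRNP genes that passed the test were lower. Of the 70 genes, 20 were lower and 2 higher in Zfx-null at a Benjamini-Hochberg adjusted p under 0.05 in limma, a rule that called 14.9% of the 12676 genes tested lower and 15.8% higher (30.7% in either direction). Genes called lower thus made up 28.6% of the splicing genes. Their median log2 change was -0.14, against -0.03 over all genes. Both Zfx-null arrays were below both Zfx-flox arrays for 35 of the 70 genes, which was true of 34.3% of all genes, and above both for 10, which was true of 30.1%. Fold changes are differences of log2(signal + 14.2), which understates the change of dim genes. On this scale no change reached 2-fold; in plain signal Srsf12 did, with means of 62.3 and 24.2. Here ± stands for the standard error of the fit, with 2 arrays a group. Each Zfx-null array had a negative median over the genes relative to the Zfx-flox mean, -0.16 and -0.11. The count of 20 depended on settings: with each array centred on its median 7 were lower (10% of the splicing genes, against 10.5% of all genes), and with a variance prior that did not depend on signal 6 were lower (8.57% against 11.6%). Srsf3 and Hnrnpd, named below, lost their ESC calls under both settings, and with only the ESC arrays in the fit 11 were lower. Leaving out 1 array gave 10 (ESC Zfx-flox replicate 2), 12 (ESC Zfx-flox replicate 1 or ESC Zfx-null replicate 1), 13 (HSC Zfx-cko replicate 1 or 2) or 14 (each of the remaining arrays), and 1 gene was called higher, in place of 2, without ESC Zfx-flox replicate 1.

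In HSC 38 of the 69 genes tested were lower and 5 higher in Zfx-cko, none by 2-fold on the log2 scale used, while 19.9% of the 12533 genes tested were called lower and 22.7% higher (42.6% in either direction). Genes called lower made up 55.1% of the splicing genes, and their median log2 change was -0.23, against 0.03 over all genes. The count of 38 was 26 with a variance prior that did not depend on signal (37.7%, against 16.9% of all genes). It was 27 with all probe sets of a gene averaged (39.1%, against 17.7%). Both Zfx-cko arrays were below both Zfx-flox arrays for 44 genes (33.4% of all genes) and above both for 15 (39% of all genes). Relative to the Zfx-flox mean, the median over the splicing genes was -0.21 and -0.20 on the Zfx-cko arrays. The arrays of a group lay closer together for these genes than for others: the median absolute log2 difference within a group was 0.0497 to 0.121 for the splicing genes and 0.119 to 0.151 for all genes, and the median standard error of a change in HSC was 0.0779 against 0.145. Without 1 array the count of 38 was 24 (HSC Zfx-flox replicate 2), 26 (HSC Zfx-cko replicate 1), 28 (HSC Zfx-flox replicate 1), 29 (HSC Zfx-cko replicate 2) or 36 to 37 (each ESC array). The count of 5 higher was 1 without HSC Zfx-flox replicate 1, 2 without HSC Zfx-flox replicate 2 and 0 without HSC Zfx-cko replicate 2, and 1 with arrays centred on their medians or without the variance trend.

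**Figure D1:**
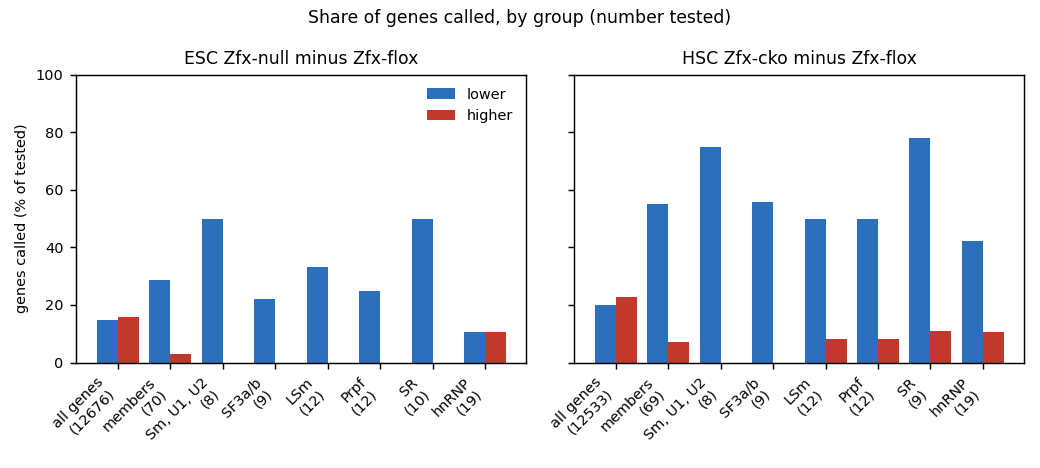
Share of genes called lower (blue) or higher (red) without Zfx, as a percentage of the genes tested (number in brackets), in ESC (left) and HSC (right), for all genes, all splicing genes and each role. Lower calls outnumber higher calls in every role except the hnRNPs of ESC, where 2 genes are called each way; among all genes the 2 directions are near equal.

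**Figure D2:**
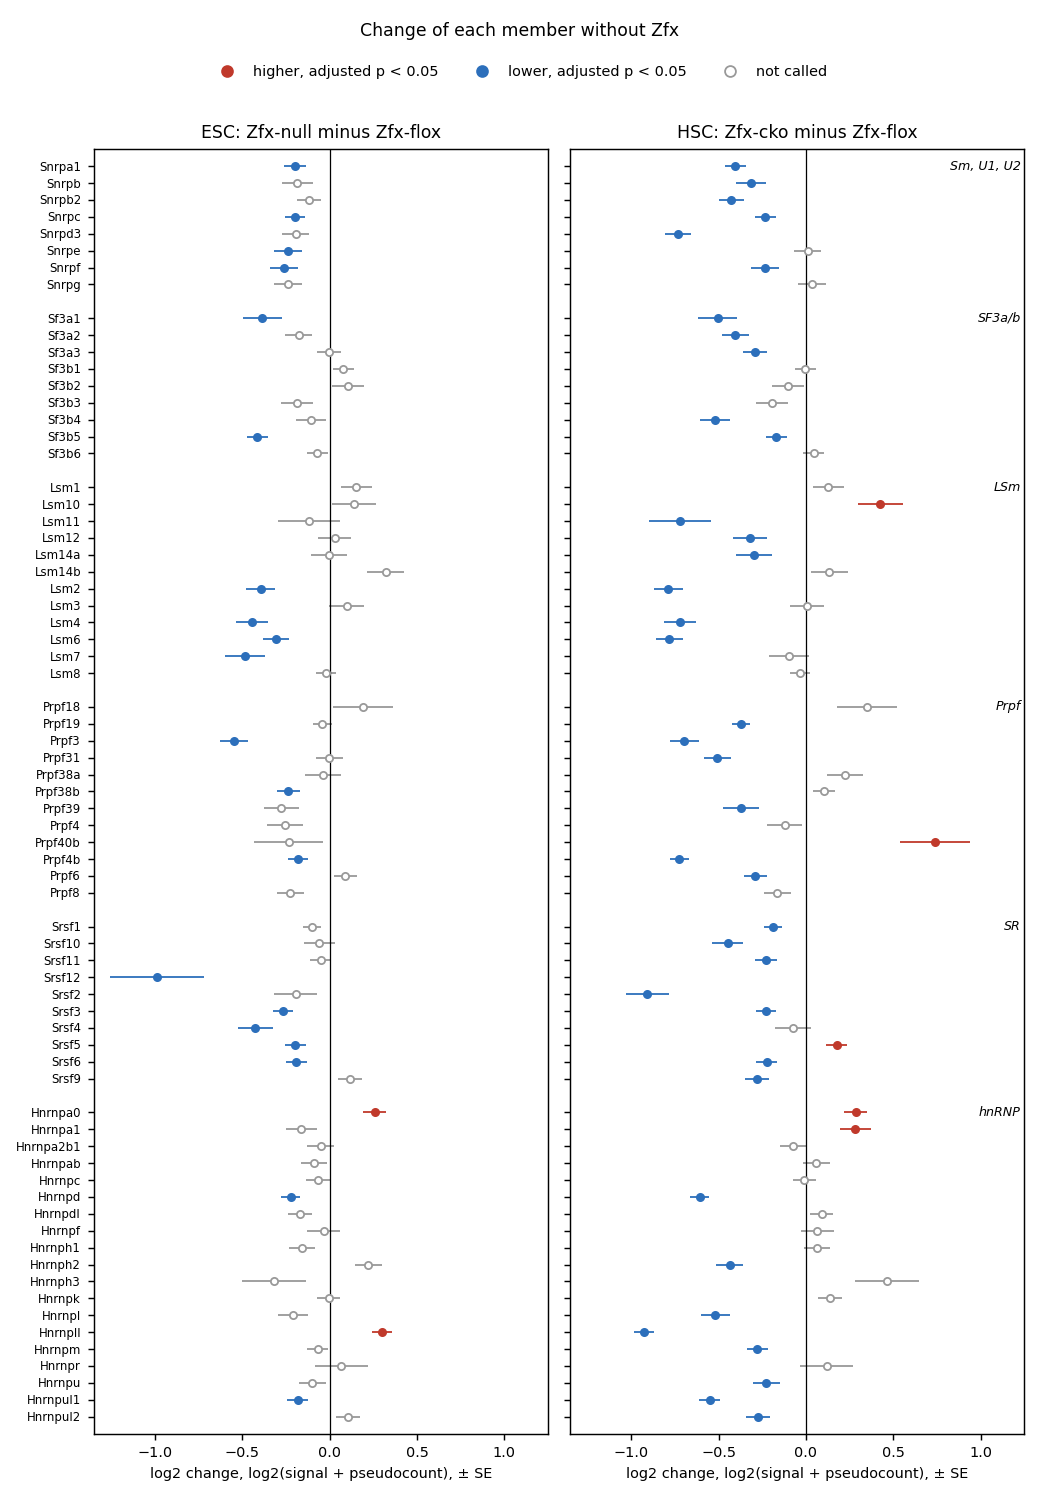
Log2 change without Zfx (points) with its standard error (bars) for each gene, grouped by role, in ESC (left) and HSC (right); filled points passed an adjusted p under 0.05, and Srsf12 has no point in HSC because it was not tested. Most filled points lie left of zero, and the HSC panel holds 38 of them against 20 in ESC.

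Of all genes tested, 14.9% were called lower and 15.8% higher in ESC, and 19.9% lower and 22.7% higher in HSC. These shares are the background for the counts of each role below. Among the Sm and U1 and U2 snRNP proteins, lower signals without Zfx were found in both cell types. In ESC 4 of 8 genes fell and none rose (median log2 change -0.20), and in HSC 6 of 8 fell and none rose (median -0.27). Snrpd3 (probe set 1422884_at), a member of the heptameric Sm ring that forms the core of the spliceosomal snRNPs, had the largest change of these. Its signal was 2054 and 2087 in control HSC, against 1165 and 1322 in Zfx-cko HSC, a change of -0.73 ± 0.08 (adjusted p 8.61e-05). In ESC it read 3599 and 3396 in the controls, against 3212 and 2908 in Zfx-null cells (-0.19 ± 0.08, adjusted p 0.0926). The groups did not overlap in either cell type, but the test was passed in HSC only, and the 2 effects differed by -0.54 ± 0.11 (adjusted p 0.00508). With all Snrpd3 probe sets averaged, the HSC call was lost and the difference between the effects turned positive. Snrpb2 and Snrpa1, which form a pair on U2 RNA, changed in HSC by -0.43 ± 0.07 (adjusted p 0.0011) and -0.40 ± 0.06 (adjusted p 0.000789). Snrpa1 read 6289.6 and 6052 in the controls, against 4637 and 4685 in Zfx-cko cells. Snrpb (Sm ring) changed by -0.31 ± 0.09 (adjusted p 0.018), Snrpf (Sm ring) by -0.23 ± 0.08 (adjusted p 0.0459) and Snrpc (the U1-specific protein U1-C) by -0.23 ± 0.06 (adjusted p 0.011). In ESC the genes that fell were Snrpf (-0.26 ± 0.08, adjusted p 0.0397), Snrpe (-0.24 ± 0.08, adjusted p 0.049), Snrpc (-0.20 ± 0.06, adjusted p 0.0312) and Snrpa1 (-0.20 ± 0.06, adjusted p 0.0415). Snrpe and Snrpg, also Sm ring proteins, were near zero in HSC, at 0.01 and 0.03, and their Zfx-flox and Zfx-cko arrays overlapped. The other Snrpg probe set (1448357_at) read 949 and 989 in the controls, against 591 and 630.3 in Zfx-cko cells and was called lower in HSC (-0.65 ± 0.06, adjusted p 5.2e-05) and in ESC (-0.39 ± 0.06, adjusted p 0.00205), and with both averaged Snrpg turned to -0.31 in HSC. These ESC calls were close to the threshold. Snrpf lost its call without any 1 array other than ESC Zfx-null replicate 1 (adjusted p 0.0537 to 0.203), Snrpa1 without any 1 array other than ESC Zfx-null replicate 2 (0.0643 to 0.208), Snrpe without any 1 array other than ESC Zfx-flox replicate 1 or ESC Zfx-null replicate 2 (0.0746 to 0.26) and Snrpc without any 1 array other than HSC Zfx-flox replicate 1 or HSC Zfx-flox replicate 2 (0.050019 to 0.128). In HSC, Snrpf lost its call without any 1 array other than ESC Zfx-null replicate 1 or ESC Zfx-null replicate 2 (0.06 to 0.241), Snrpb without HSC Zfx-flox replicate 2 or HSC Zfx-cko replicate 1 (0.112 to 0.121) and Snrpc without HSC Zfx-flox replicate 1 or HSC Zfx-cko replicate 1 (0.0573 to 0.0787), and with all probe sets averaged Snrpc turned to 0.17.

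The SF3a and SF3b subunits, which hold U2 at the branch site, were split. In ESC 2 of 9 fell and in HSC 5 of 9; none rose in either, and the medians were -0.11 and -0.20. Sf3b5 (probe set 1437972_s_at), a small SF3b subunit, read 4182 and 3972 in control ESC, against 3186 and 2925 in Zfx-null ESC. Its ESC groups were well apart, with a change of -0.42 ± 0.06 (adjusted p 0.00106). In HSC it read 4716 and 4785 in the controls, against 4149 and 4297 in Zfx-cko cells, a smaller change of -0.17 ± 0.06 (adjusted p 0.048) that was lost without any 1 HSC array (adjusted p 0.101 to 0.211); the difference between the effects did not pass the test (0.25 ± 0.08, adjusted p 0.0507). All 3 SF3a subunits fell in HSC. Sf3a1 changed by -0.50 ± 0.11 (adjusted p 0.00573), Sf3a2 by -0.40 ± 0.08 (adjusted p 0.00269) and Sf3a3 by -0.29 ± 0.07 (adjusted p 0.00838). Sf3a2 read 1295 and 1424 in control HSC, against 1057 and 989 in Zfx-cko HSC, without overlap. Sf3a1 also fell in ESC (-0.39 ± 0.11, adjusted p 0.0289), where it read 903 and 804 in the controls, against 691 and 609.6 in Zfx-null cells; that call was lost without ESC Zfx-flox replicate 1 or ESC Zfx-null replicate 2 (adjusted p 0.147 to 0.155), and the change was 0.038 when all probe sets were averaged. The Sf3a3 call in HSC was lost without HSC Zfx-flox replicate 2 or HSC Zfx-cko replicate 2 (0.0505 to 0.0761). Sf3b4, which contacts RNA upstream of the branch site, changed in HSC by -0.52 ± 0.08 (adjusted p 0.00102), with 1733 and 1539.9 in the controls, against 1149 and 1121 in Zfx-cko cells. Sf3b1, the large subunit that surrounds the branch site adenosine, did not pass the test in either cell type (0.08 ± 0.06 in ESC and -0.004 ± 0.06 in HSC). Its HSC arrays read 4439 and 4411 in control HSC, against 4596 and 4237 in Zfx-cko HSC, with the Zfx-flox values inside the Zfx-cko range. Sf3b2 and Sf3b6, other SF3b subunits, were also not called, with HSC changes of -0.10 and 0.05. For Sf3b2, however, 3 dimmer probe sets were called lower in HSC, with changes of -0.33, -0.64 and -0.42, and the average of all its probe sets was -0.26.

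LSm proteins form rings like the Sm proteins: Lsm2 to Lsm8 bind U6 RNA in the nucleus, and Lsm1 to Lsm7 take part in mRNA decay in the cytoplasm. In ESC 4 of 12 fell and none rose; in HSC 6 fell and Lsm10 rose. The 3 ring members Lsm2, Lsm4 and Lsm6 fell in both cell types. Lsm2 (probe set 1451884_a_at) read 1295 and 1253 in control ESC, against 1008 and 925 in Zfx-null ESC. In HSC it read 298 and 280.4 in the controls, against 157 and 166 in Zfx-cko cells. The Zfx-deleted arrays were the lower ones in both, with changes of -0.39 ± 0.08 (adjusted p 0.00739) and -0.79 ± 0.08 (adjusted p 9.05e-05). Lsm4 (probe set 1448622_at) read 3151 and 3609.6 in control ESC, against 2307 and 2653 in Zfx-null ESC, and in HSC 1516 and 1540.2 in the controls, against 878 and 966 in Zfx-cko cells. These groups were also apart, with changes of -0.44 ± 0.09 (adjusted p 0.006) and -0.72 ± 0.09 (adjusted p 0.000232). Lsm6 (probe set 1437109_s_at) read 962 and 998 in control HSC, against 583 and 546 in Zfx-cko HSC, a change of -0.78 ± 0.08 (adjusted p 5.6e-05); in ESC it changed by -0.31 ± 0.08 (adjusted p 0.0155). The HSC change exceeded the ESC change for Lsm2 (-0.39 ± 0.12, adjusted p 0.0302) and Lsm6 (-0.47 ± 0.11, adjusted p 0.00916), and the difference did not pass the test for Lsm4 (-0.28 ± 0.13, adjusted p 0.129). Lsm3 and the subunits that distinguish the rings were not called. Lsm8, the subunit specific to the nuclear ring, changed by -0.02 in ESC and -0.03 in HSC, and Lsm3 by 0.10 and 0.01. Lsm1, specific to the cytoplasmic ring, was at 0.15 and 0.13; its other probe set, dim in HSC, was called higher there (0.67). Lsm7 fell in ESC (-0.49 ± 0.11, adjusted p 0.0121) and was not called in HSC (-0.10 ± 0.11, adjusted p 0.548). The ESC calls of Lsm6 and Lsm7 were lost without ESC Zfx-flox replicate 1 or ESC Zfx-null replicate 2 (adjusted p 0.08 to 0.0857 and 0.0593 to 0.0733), and the Lsm2 difference without ESC Zfx-flox replicate 1 or 2, ESC Zfx-null replicate 1, HSC Zfx-flox replicate 1 or HSC Zfx-cko replicate 1 (0.0568 to 0.0922).

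Lsm10 and Lsm11, which replace 2 Sm proteins in the U7 snRNP that processes histone transcripts, went opposite ways in HSC. Lsm11 read 279 and 325 in control HSC, against 165 and 191 in Zfx-cko HSC (-0.72 ± 0.18, adjusted p 0.00972) and Lsm10 353 and 327 in the controls, against 476 and 447 in Zfx-cko cells (0.43 ± 0.13, adjusted p 0.0249). The groups did not overlap for either gene, though Lsm11 lost its call without HSC Zfx-flox replicate 2 or HSC Zfx-cko replicate 1 (adjusted p 0.0673 to 0.0699) and Lsm10 without any 1 HSC array (0.0563 to 0.124). Lsm12 changed in HSC by -0.32 ± 0.10 (adjusted p 0.0249) and Lsm14a, a protein of cytoplasmic RNA granules, by -0.30 ± 0.10 (adjusted p 0.0445). Both were near zero in ESC, at 0.03 and -0.0037. The call of Lsm12 was lost without HSC Zfx-flox replicate 1 or 2 or HSC Zfx-cko replicate 1 (0.0759 to 0.173) and that of Lsm14a without ESC Zfx-null replicate 1 or 2, HSC Zfx-flox replicate 1 or HSC Zfx-cko replicate 1 or 2 (0.0543 to 0.245). Lsm14b, the paralog of Lsm14a, was not called in either cell type; in ESC it read 406 and 432 in the controls, against 587 and 472 in Zfx-null cells, the deleted arrays being the higher ones (0.32 ± 0.11, adjusted p 0.0521).

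Of the 12 Prpf proteins, 3 fell in ESC and 6 in HSC, and Prpf40b alone rose, in HSC. Prpf3 (probe set 1424314_at), a U4 and U6 snRNP protein, fell in both by similar amounts. It read 617 and 643 in control ESC, against 445 and 409 in Zfx-null ESC, and in HSC 603 and 635 in the controls, against 380.5 and 373 in Zfx-cko cells. Every Zfx-deleted array was lower than every control array of its cell type, with changes of -0.55 ± 0.08 (adjusted p 0.00125) and -0.70 ± 0.08 (adjusted p 0.000155). The difference between the effects was -0.15 ± 0.12 (adjusted p 0.355). Prpf4, the partner of Prpf3 in that snRNP, was lower on both deleted arrays in each cell type but was not called (-0.26 ± 0.10 in ESC and -0.12 ± 0.10 in HSC). Prpf31 (probe set 1448633_at), also of the U4 and U6 snRNP, read 596 and 608 in control HSC, against 409.7 and 429 in Zfx-cko HSC. It changed in HSC by -0.51 ± 0.08 (adjusted p 0.00081) and was at -0.0014 ± 0.08 (adjusted p 0.992) in ESC, where the arrays overlapped. The difference was -0.51 ± 0.11 (adjusted p 0.00766). The other Prpf31 probe set (1453005_at) was not called in ESC (-0.16) or HSC (-0.10), and its difference was 0.06 (adjusted p 0.82). Prpf6, which bridges the tri-snRNP, changed in HSC by -0.29 ± 0.06 (adjusted p 0.00605) and Prpf19, the ubiquitin ligase of the Prp19 complex, by -0.37 ± 0.05 (adjusted p 0.00049). Prpf19 (probe set 1456531_x_at) read 8903 and 9017 in control HSC, against 7095 and 6759 in Zfx-cko HSC, and in ESC 4423 and 4201 in the controls, against 4217 and 4156 in Zfx-null cells, where the groups overlapped. Prpf8, the large U5 protein at the catalytic centre, was not called in ESC (-0.23 ± 0.08, adjusted p 0.0556) or HSC (-0.17 ± 0.08, adjusted p 0.12).

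Prpf4b (probe set 1425498_at), a kinase that phosphorylates tri-snRNP proteins, read 2724 and 2641 in control HSC, against 1636 and 1602 in Zfx-cko HSC, without overlap (-0.72 ± 0.06, adjusted p 1.41e-05). In ESC it changed by -0.18 ± 0.06 (adjusted p 0.037), a call lost without any 1 of the 8 arrays (adjusted p 0.059 to 0.113). No other Prpf4b probe set was called in HSC: 4 others were tested there, with log2 changes of -0.24, 0.05, -0.02 and 0.30, and with all of them averaged the difference between the effects turned from -0.54 to 0.20. The U1-associated proteins Prpf39 and Prpf40b moved apart in HSC. Prpf39 changed by -0.37 ± 0.10 (adjusted p 0.0166). Prpf40b, which was dim in HSC, read 29.3 and 33.8 in control HSC, against 57.9 and 66.4 in Zfx-cko HSC, a rise of 0.74 ± 0.20 (adjusted p 0.0154). The Prpf39 call was lost without HSC Zfx-flox replicate 1 or 2 or HSC Zfx-cko replicate 1 (0.0507 to 0.115) and the Prpf40b call without HSC Zfx-flox replicate 1 or HSC Zfx-cko replicate 2 (0.0715 to 0.0825). Prpf38b changed in ESC by -0.24 ± 0.06 (adjusted p 0.0215) and was at 0.10 ± 0.06 (adjusted p 0.236) in HSC, with a difference of 0.34 ± 0.09 (adjusted p 0.018); the ESC call was lost without ESC Zfx-flox replicate 2 or ESC Zfx-null replicate 2 (0.0903 to 0.109). No other Prpf38b probe set was called in either cell type. Their differences were 0.0011 (1428674_at), 0.66 (1455016_at, dim) and -0.016 (1456506_at, dim), and none passed the test. Prpf38a and Prpf18, a second-step factor, did not pass the test in either cell type, with HSC changes of 0.22 and 0.35. A dim second probe set of Prpf38a was called higher in HSC (0.73).

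**Figure D3:**
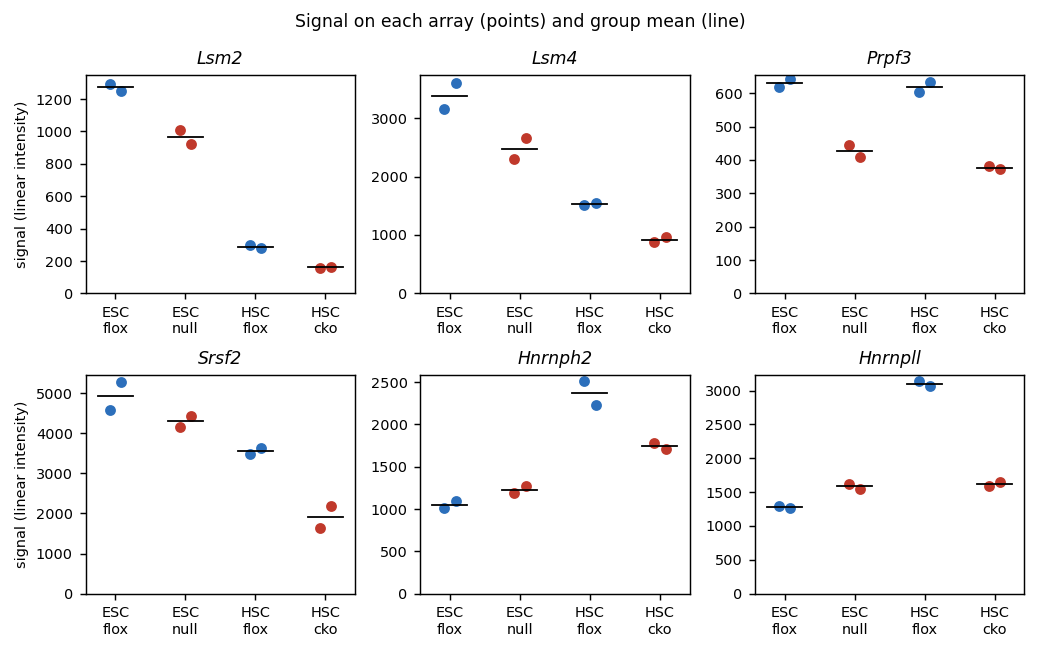
Deposited signal on a linear scale for 6 genes, with 1 point for each array, a line at the group mean and blue for Zfx-flox and red for Zfx-null or Zfx-cko. Lsm2, Lsm4 and Prpf3 are lower without Zfx in both cell types, Srsf2 and Hnrnph2 pass the test in HSC, and Hnrnpll is higher in ESC and lower in HSC; signals of different genes are not comparable.

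SR proteins fell in 5 of 10 genes in ESC and in 7 of 9 in HSC, where 1 rose; medians were -0.19 and -0.23. Srsf2 (probe set 1427504_s_at, also called SC35) had the largest HSC change of the SR proteins, with 3482 and 3637 in control HSC, against 1633 and 2185 in Zfx-cko HSC. The Zfx-cko arrays differed from each other but both lay far below the controls (-0.91 ± 0.12, adjusted p 0.000373). In ESC it read 4575 and 5271 in the controls, against 4149 and 4437 in Zfx-null cells, a smaller shift that was not called (-0.19 ± 0.12, adjusted p 0.279), and the difference was -0.71 ± 0.17 (adjusted p 0.0126). Srsf10, a regulator that represses splicing when dephosphorylated, changed in HSC by -0.45 ± 0.09 (adjusted p 0.00292) and Srsf9 by -0.28 ± 0.07 (adjusted p 0.0106); in ESC they were at -0.06 and 0.12. Srsf1, an SR protein that binds exonic enhancers, changed in HSC by -0.19 ± 0.05 (adjusted p 0.0153) and Srsf11 by -0.23 ± 0.06 (adjusted p 0.0147). Srsf3 and Srsf6, 2 further enhancer-binding SR proteins, fell in both cell types. Srsf3 (probe set 1434512_x_at) read 2607 and 2757 in control ESC, against 2269 and 2182 in Zfx-null ESC, a change of -0.27 ± 0.06 (adjusted p 0.0084), and changed by -0.23 ± 0.06 (adjusted p 0.0119) in HSC. Srsf6 changed by -0.19 ± 0.06 (adjusted p 0.0415) in ESC and -0.22 ± 0.06 (adjusted p 0.0157) in HSC.

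Srsf5, another SR protein, went opposite ways. It read 5929 and 5923 in control ESC, against 4959.5 and 5387 in Zfx-null ESC and, in HSC, 3291 and 3319 in the controls, against 3595 and 3878 in Zfx-cko cells. Deleted arrays were thus lower in ESC (-0.20 ± 0.06, adjusted p 0.0376) and higher in HSC (0.18 ± 0.06, adjusted p 0.0449), and the difference passed the test (0.37 ± 0.09, adjusted p 0.00967). The 2 changes themselves were near the threshold: the ESC call was lost without ESC Zfx-flox replicate 1 or 2, ESC Zfx-null replicate 1 or HSC Zfx-flox replicate 1 or 2 (adjusted p 0.0627 to 0.185) and the HSC call without ESC Zfx-flox replicate 1 or 2, HSC Zfx-flox replicate 1 or 2 or HSC Zfx-cko replicate 2 (0.0554 to 0.261). Srsf4 changed in ESC by -0.42 ± 0.10 (adjusted p 0.0135) and was at -0.08 ± 0.10 (adjusted p 0.605) in HSC. Srsf12, a dim gene, read 55.6 and 69 in control ESC, against 24 and 24.5 in Zfx-null ESC, a change of -0.99 ± 0.27 (adjusted p 0.0226). On the HSC arrays Srsf12 was between 0.476 and 7.17 and was not tested. The ESC call of Srsf4 was lost without ESC Zfx-flox replicate 1 or ESC Zfx-null replicate 2 (0.073 to 0.0862), that of Srsf12 without ESC Zfx-null replicate 1 or 2 (0.0737 to 0.077) and that of Srsf6 without any 1 array other than ESC Zfx-flox replicate 1 or ESC Zfx-null replicate 2 (0.0661 to 0.206). In HSC, Srsf1 and Srsf6 lost their calls without any 1 HSC array (0.0676 to 0.0827 and 0.0523 to 0.0933), Srsf3 and Srsf11 without HSC Zfx-flox replicate 2 or HSC Zfx-cko replicate 2 (0.0875 to 0.0944 and 0.0919 to 0.099), and Srsf9 without HSC Zfx-flox replicate 1 or 2 or HSC Zfx-cko replicate 1 (0.0522 to 0.0896).

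The hnRNPs were called in both directions. In ESC 2 of 19 rose and 2 fell (median -0.07), and in HSC 2 rose and 8 fell (median -0.01). The ESC shares, 10.5% each way, were under those of all genes (15.8% higher and 14.9% lower). In HSC 10.5% rose and 42.1% fell, against 22.7% and 19.9% of all genes. Hnrnpll (probe set 1425255_s_at), known as a regulator of CD45 exon choice in lymphocytes, had the largest of the 23 differences between cell types that passed the test. It read 1293 and 1272 in control ESC, against 1627 and 1539 in Zfx-null ESC. In HSC it read 3139 and 3061 in the controls, against 1588 and 1657 in Zfx-cko cells. Both deleted arrays were above the controls in ESC and below them in HSC. Its changes were 0.30 ± 0.06 (adjusted p 0.00463) and -0.93 ± 0.06 (adjusted p 4.64e-06), and they differed by -1.23 ± 0.08 (adjusted p 1.79e-05). The second Hnrnpll probe set (1427144_at) gave 0.36 ± 0.07 in ESC and -0.78 ± 0.07 in HSC, called in the same directions. Hnrnpl, its paralog, which binds CA-rich RNA, changed in HSC by -0.52 ± 0.09 (adjusted p 0.00113) and was at -0.21 ± 0.09 (adjusted p 0.0972) in ESC. Hnrnph2 (probe set 1415963_at), of the family that binds runs of G, read 2512 and 2231 in control HSC, against 1786 and 1706 in Zfx-cko HSC and, in ESC, 1015 and 1089.8 in the controls, against 1185 and 1274 in Zfx-null cells. Its groups were apart in both cell types and in opposite directions, with -0.44 ± 0.08 (adjusted p 0.00167) in HSC. The ESC change missed the threshold at 0.22 ± 0.08 (adjusted p 0.0581), and the difference between them passed it (-0.66 ± 0.11, adjusted p 0.00183). Hnrnph3 moved the other way, with -0.32 ± 0.18 (adjusted p 0.233) in ESC and 0.46 ± 0.18 (adjusted p 0.0728) in HSC, neither called, and a difference of 0.78 ± 0.26 (adjusted p 0.0447).

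Hnrnpd (probe set 1425142_a_at, also AUF1), which binds AU-rich RNA, fell in both cell types. It read 2522 and 2667 in control HSC, against 1699.5 and 1694 in Zfx-cko HSC (-0.61 ± 0.05, adjusted p 3.15e-05) and, in ESC, 2632 and 2645 in the controls, against 2258 and 2259.9 in Zfx-null cells (-0.22 ± 0.05, adjusted p 0.0133). On this probe set the fall was larger in HSC, with a difference of -0.38 ± 0.08 (adjusted p 0.00448). Another Hnrnpd probe set (1457568_at) was not called in ESC (-0.16) or HSC (0.06), and its difference was 0.22 (adjusted p 0.321). A dim one (1458273_at), tested in HSC alone, was at -0.22 and not called. Hnrnpul1, a relative of hnRNP U, changed by -0.18 ± 0.06 (adjusted p 0.0459) in ESC and -0.55 ± 0.06 (adjusted p 9.89e-05) in HSC, and its paralog Hnrnpul2 changed in HSC by -0.28 ± 0.07 (adjusted p 0.0104). Hnrnpm, which regulates alternative exons, changed in HSC by -0.28 ± 0.06 (adjusted p 0.00435) and Hnrnpu, a chromatin-associated hnRNP, by -0.23 ± 0.08 (adjusted p 0.0436). Hnrnpa0 (probe set 1428407_at), of the hnRNP A family, was the gene that rose in both. It read 1570.5 and 1724 in control ESC, against 1903 and 2041 in Zfx-null ESC and, in HSC, 5730.4 and 6034 in the controls, against 7037 and 7308 in Zfx-cko cells, with changes of 0.26 ± 0.07 (adjusted p 0.0174) and 0.29 ± 0.07 (adjusted p 0.00725). Hnrnpa1, a splicing repressor of the same family, changed in HSC by 0.28 ± 0.09 (adjusted p 0.0297) and was at -0.16 ± 0.09 (adjusted p 0.21) in ESC. Hnrnpab, Hnrnpa2b1 and Hnrnpk, 3 other abundant hnRNPs, were not called, with HSC changes of 0.06, -0.07 and 0.14. For the first pair other probe sets were called in HSC: Hnrnpab was lower on 4, among them 1453849_s_at (-0.68 ± 0.06, adjusted p 5.22e-05), and Hnrnpa2b1 was higher on 1433830_at, with 796 and 984 in the controls, against 1696 and 1699 in Zfx-cko cells (0.93 ± 0.09, adjusted p 6.5e-05). Averaged over all probe sets, their HSC changes turned to -0.24 and 0.20. In ESC the Hnrnpul1 call was lost without any 1 of the 8 arrays (adjusted p 0.0624 to 0.133) and the Hnrnpa0 call without ESC Zfx-flox replicate 1 or ESC Zfx-null replicate 2 (0.0906 to 0.0997). In HSC Hnrnpa0 lost its call without HSC Zfx-flox replicate 1 or HSC Zfx-cko replicate 2 (0.0573 to 0.059), Hnrnpa1 without any 1 HSC array (0.0775 to 0.146), Hnrnpu without any 1 array other than ESC Zfx-null replicate 1 or ESC Zfx-null replicate 2 (0.054 to 0.197) and Hnrnpul2 without HSC Zfx-flox replicate 2 or HSC Zfx-cko replicate 2 (0.0556 to 0.0746).

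The Zfx comparisons of the 2 cell types use separate controls, but both were tested in 1 fit with a spread pooled over cell types. Their calls are set side by side and are not independent. A gene with a small spread is more easily called in both, and the median standard error was 0.0779 for the splicing genes, against 0.145 for all genes in HSC. Of 69 genes tested in both, 14 were lower in both: Snrpa1, Snrpc, Snrpf, Sf3a1, Sf3b5, Lsm2, Lsm4, Lsm6, Prpf3, Prpf4b, Srsf3, Srsf6, Hnrnpd and Hnrnpul1. This was 20.3% of the splicing genes, against 6.27% of the 11175 genes tested in both. The overlap was counted under the main settings only. With arrays centred on their medians 7 genes in place of 20 were lower in ESC, and 6 without the variance trend, so fewer could be lower in both. Of the 14 genes, only Sf3b5, Lsm2, Lsm4 and Prpf3 kept their ESC call under every alternative. Of the 19 genes that fell in ESC and were tested in HSC, 73.7% also fell in HSC (40.3% among all genes), and of the 38 that fell in HSC, 36.8% fell in ESC (29.1% among all genes). Hnrnpa0 was higher in both, Hnrnpll and Srsf5 were called in opposite directions, 4 genes fell in ESC only by the test, 23 fell and 3 rose in HSC only by the test, and 22 were called in neither. A call in 1 cell type does not show a difference between them, so the effects were compared directly. The HSC effect was lower than the ESC effect for 18 genes and higher for 5, where 17.7% and 17.6% of all genes were called (35.3% together). The median of these differences over the splicing genes was -0.09. The 5 with a higher HSC effect were Prpf38b, Prpf40b, Srsf5, Hnrnpa1 and Hnrnph3. Without 1 array the count of 18 ranged from 13 to 17. The count of 5 was 1 without HSC Zfx-cko replicate 2, 2 without HSC Zfx-flox replicate 1 and 3 without ESC Zfx-flox replicate 2 or HSC Zfx-cko replicate 1, and with arrays centred on their medians it was 0, against 16 lower; 9 genes instead of 18 had a lower HSC effect when all probe sets were averaged. Averaging also turned the Snrpd3 difference to 0.31.

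Between the floxed controls, levels of 42 of 69 splicing genes were within 2-fold of each other in HSC and ESC. The comparison is given without a test because HSC RNA went through another amplification round and started from less RNA. The round, the RNA input and the cell type cannot be told apart. Of the others, 18 were at least 2-fold higher in HSC and 9 at least 2-fold lower; the background was 18.4% and 23% of the 11175 genes tested in both. The median log2 difference, HSC minus ESC, was 0.42 over the splicing genes and -0.15 over all genes. The furthest above zero were Lsm8 (2.09), Sf3b2 (2.01), Hnrnpa0 (1.83), Sf3b6 (1.76), Lsm14a (1.65), Snrpf (1.64), Srsf1 (1.58) and Sf3b1 (1.52). Lsm8 read 1095 and 1042 in control ESC and 4621 and 4575 in control HSC. The furthest below were Prpf40b (-2.26), Lsm2 (-2.09), Snrpc (-1.51), Hnrnph3 (-1.49), Prpf8 (-1.46), Hnrnpl (-1.37), Prpf4 (-1.34) and Sf3a1 (-1.16). For 4 of these genes another probe set went the other way: means in control ESC and control HSC were 829 and 74.0 for Sf3b2 (1456040_at), 2343 and 137 for Srsf1 (1452430_s_at), 2790 and 2546 for Sf3b1 (1449138_at), and 262 and 341 for Sf3a1 (1419087_s_at). The count of 18 was 9 after quantile normalization over all arrays and 7 when all probe sets of a gene were averaged.

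Further probe sets of the same genes were read as a check within these arrays. Besides the ones used above, 110 were tested in ESC, of which 21 were lower and 1 higher (12.8% and 13.4% of all 22833 probe sets tested with 1 symbol), and 110 in HSC, of which 41 were lower and 7 higher (18.1% and 21.3% of 22095). In ESC no gene had probe sets called in opposite directions. In HSC 3 genes did. Of the others tested in HSC, 16 were called lower and 4 higher where the probe set used above was not called. Where the probe set used above was called lower in HSC, 25 others were lower, 32 were not called and 2 were higher. Where it was called lower in ESC, 8 others were lower and 17 were not called. For Srsf3, the probe set 1438215_at read 71.3 and 67.1 in control HSC, against 142 and 158 in Zfx-cko HSC, a rise of 0.98 ± 0.11 (adjusted p 0.000145). The probe set 1416150_a_at of the same gene read 5608 and 5406 in the controls, against 3365 and 3886 in Zfx-cko cells, a change of -0.60 ± 0.07 (adjusted p 0.000177). In ESC these were at -0.35 and -0.19, both negative. Hnrnpu showed the same split in HSC, with 0.61 ± 0.11 (adjusted p 0.0019) for 1434390_at and -0.95 ± 0.10 (adjusted p 0.000123) for 1450849_at. Hnrnpdl, a relative of Hnrnpd, gave 0.46 ± 0.05 (adjusted p 0.000199) for 1424252_at and -0.82 ± 0.06 (adjusted p 1.48e-05) for 1449039_a_at. Each probe set covers a short stretch of a transcript, and the sources used here do not give which isoforms each reads. With all probe sets of a gene averaged, 16 of 43 HSC calls were lost, among them Snrpd3, Snrpb2, Sf3a1, Sf3b4, Prpf4b, Prpf6, Hnrnpd and Hnrnpl, as were 7 of 22 ESC calls.

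**Figure D4:**
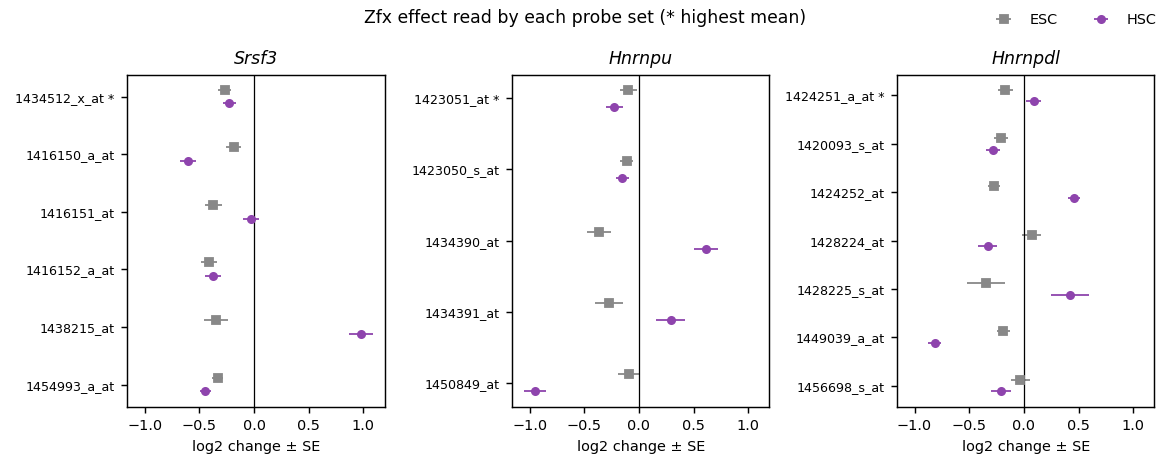
Log2 change without Zfx (points, with standard error bars) for each tested probe set of Srsf3, Hnrnpu and Hnrnpdl in ESC (grey squares) and HSC (purple circles); the asterisk marks the probe set with the highest mean signal. In HSC the probe sets of 1 gene lie on both sides of zero, from 0.98 to -0.60 for Srsf3, while 1 ESC point, of Hnrnpdl, lies right of zero.

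Other splicing genes, 154 on 8 lists chosen by function, were called in both directions. In ESC 23 of 154 were lower (14.9%) and 10 higher (6.49%), beside 14.9% lower and 15.8% higher among all genes. In HSC 41 of 152 were lower (27%) and 30 higher (19.7%), beside 19.9% and 22.7%. The lower share in ESC and the higher share in HSC were thus near those of all genes. The same shares of all genes are the background for the counts of each list below. With all probe sets averaged, 7 of 23 ESC calls and 10 of 40 HSC calls of the genes picked from these lists were lost. The assembly machinery that loads Sm rings onto snRNA, the SMN complex and its partners, had 7 of 16 genes lower and none higher in HSC, and 1 lower in ESC. Smn1, its central protein, was dim in HSC and read 53.1 and 54.3 in control HSC, against 10.7 and 29.1 in Zfx-cko HSC (-1.05 ± 0.23, adjusted p 0.00521). The other large changes were in Strap (-0.79 ± 0.13, adjusted p 0.00108), Gemin5, which binds snRNA (-0.77 ± 0.12, adjusted p 0.000852), and the cap-binding protein Ncbp1 (-0.77 ± 0.07, adjusted p 3.7e-05). Of the kinases and cofactors of the SR proteins, 7 of 13 rose and 2 fell in HSC, where 7 of 9 SR proteins fell. Srpk2, which phosphorylates SR proteins in the cytoplasm, read 1697 and 1709 in control HSC, against 4206 and 4312 in Zfx-cko HSC, a rise of 1.32 ± 0.08 (adjusted p 3.23e-06), and in ESC it was at -0.002 ± 0.08 (adjusted p 0.988). The nuclear kinases Clk1 (0.76 ± 0.10, adjusted p 0.000274) and Clk4 (0.64 ± 0.10, adjusted p 0.000684) rose as well, as did Nktr, a protein with an SR-like domain (0.58 ± 0.11, adjusted p 0.00298). In ESC 1 of the 13 was called, Srpk1 (-0.30 ± 0.08, adjusted p 0.0182), whose call was lost without ESC Zfx-flox replicate 1 or ESC Zfx-null replicate 2 (adjusted p 0.0945 to 0.0971). For Srpk2, Clk1, Clk4 and Nktr the HSC effect exceeded the ESC effect, by 1.32, 0.95, 0.88 and 0.50 (adjusted p 4.92e-05, 0.00101, 0.00134 and 0.0373). The Nktr difference was lost without ESC Zfx-flox replicate 1 or 2, ESC Zfx-null replicate 2, HSC Zfx-flox replicate 2 or HSC Zfx-cko replicate 2 (0.0618 to 0.127), and with all probe sets averaged the HSC calls of Clk4 and Nktr were lost (adjusted p 0.251 and 0.217).

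**Figure D5:**
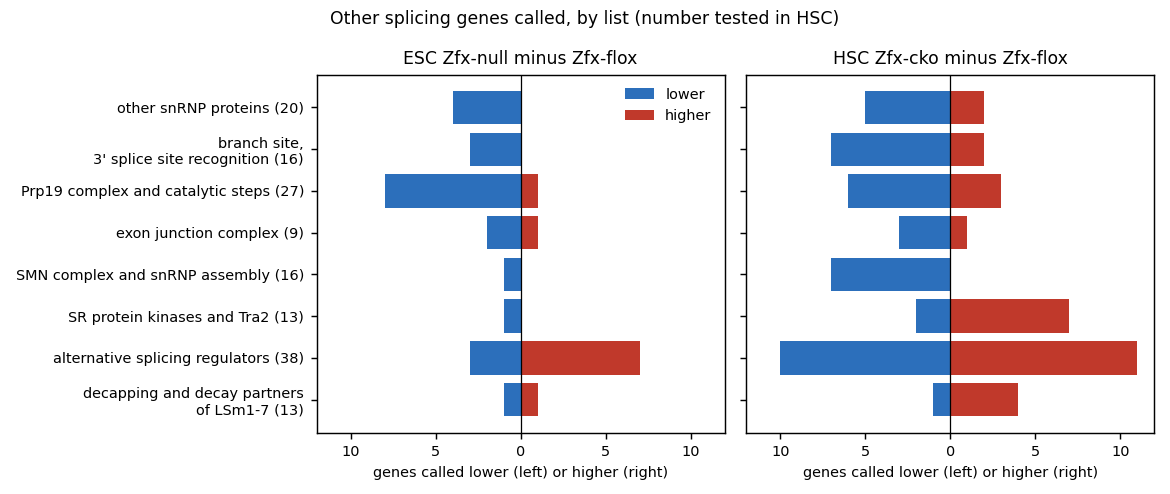
Number of genes called lower (blue, left) or higher (red, right) without Zfx on each list of other splicing genes, in ESC (left) and HSC (right), with the number tested in HSC in brackets (40 alternative splicing regulators were tested in ESC). The SMN list has 7 lower and no higher genes in HSC, and the SR kinase list 7 higher and 2 lower. Among all genes tested in HSC, 19.9% were lower and 22.7% higher.

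Around the branch site and the 3′ splice site, 3 of 16 genes fell in ESC, and 7 fell and 2 rose in HSC. U2af1, the small U2AF subunit that reads the AG of the 3′ splice site, fell in both, with changes of -0.33 ± 0.05 (adjusted p 0.00124) and -0.34 ± 0.05 (adjusted p 0.000533). It read 3277 and 3266 in control ESC, against 2588 and 2619 in Zfx-null ESC and, in HSC, 5304 and 5302 in the controls, against 4135 and 4251 in Zfx-cko cells. U2surp (-0.71 ± 0.05, adjusted p 1.35e-05) and the SF3b subunit Phf5a (-0.66 ± 0.06, adjusted p 5.07e-05) fell in HSC. Rbm39, a U2AF-related splicing factor, was lower in ESC (-0.35 ± 0.06, adjusted p 0.00231) and higher in HSC, with 2353 and 2516 in control HSC, against 5597 and 5602 in Zfx-cko HSC (1.20 ± 0.06, adjusted p 1.71e-06). Rbm5, a regulator of alternative exons, changed in HSC by 0.58 ± 0.06 (adjusted p 9.66e-05). The Prp19 complex and catalytic factors had 8 of 27 lower (29.6%) and 1 higher in ESC. In HSC they had 6 lower (22.2%, near the 19.9% of all genes) and 3 higher. Cwc22, which brings Eif4a3 to the spliceosome, fell in both, with changes of -1.08 ± 0.15 (adjusted p 0.000829) and -0.86 ± 0.15 (adjusted p 0.00148), as did the helicase Dhx16, with -0.59 ± 0.06 (adjusted p 0.000173) and -0.42 ± 0.06 (adjusted p 0.000453). Bcas2, of the Prp19 complex, changed in HSC by -0.79 ± 0.10 (adjusted p 0.000189). Of 20 other snRNP proteins, 4 fell in ESC, and 5 fell and 2 rose in HSC; Snrnp25 and Snrnp48, both of the minor spliceosome, changed by -0.63 ± 0.10 (adjusted p 0.00144) and -0.39 ± 0.07 (adjusted p 0.00247) in ESC, and Snrnp48 rose in HSC (0.34 ± 0.07, adjusted p 0.00291).

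The exon junction complex and export list had 2 lower and 1 higher of 9 in ESC, and 3 lower and 1 higher in HSC. Alyref, an mRNA export adaptor, changed in HSC by -0.80 ± 0.10 (adjusted p 0.000189). The THO subunits Thoc1 and Thoc2, which couple transcription to export, moved apart in HSC (-0.66 ± 0.06, adjusted p 4.33e-05, and 0.71 ± 0.07, adjusted p 4.42e-05), and Thoc1 rose in ESC (0.39 ± 0.06, adjusted p 0.00166). Alternative splicing regulators had 7 of 40 higher (17.5%, near the 15.8% of all genes) and 3 lower in ESC. In HSC 11 of 38 were higher (28.9%, against 22.7%) and 10 lower (26.3%, against 19.9%). Celf2, Mbnl2, Ptbp3 and Khdrbs3, which regulate exon choice, rose in both. Celf2 changed by 1.10 ± 0.07 (adjusted p 1.86e-05) in ESC and 0.68 ± 0.07 (adjusted p 5.55e-05) in HSC, Mbnl2 by 0.70 ± 0.06 (adjusted p 8.54e-05) and 1.19 ± 0.06 (adjusted p 2.09e-06), Ptbp3 by 0.74 ± 0.06 (adjusted p 4.35e-05) and 0.24 ± 0.06 (adjusted p 0.00709), and Khdrbs3 by 0.96 ± 0.20 (adjusted p 0.00684) and 0.90 ± 0.20 (adjusted p 0.00573). The cold-inducible protein Cirbp rose in HSC (1.24 ± 0.11, adjusted p 3.33e-05) and Fubp1, a regulator of Myc transcription that also binds RNA, fell (-1.20 ± 0.12, adjusted p 7.19e-05). Partners of the cytoplasmic LSm ring in decapping and decay had 1 lower and 1 higher of 13 in ESC, and 4 higher and 1 lower in HSC. Ddx6, a helicase of decay complexes, and Patl1, which binds that ring, changed in HSC by 0.44 ± 0.07 (adjusted p 0.000656) and 0.46 ± 0.08 (adjusted p 0.00156), and the exonuclease Xrn1 changed by -0.55 ± 0.11 (adjusted p 0.003). With all probe sets averaged, the Patl1 change was -0.12 and the ESC change of Ddx6 turned from 0.23 to -0.32. The Ptbp3 call in HSC was lost without HSC Zfx-flox replicate 2 or HSC Zfx-cko replicate 2 (adjusted p 0.0503 to 0.0659).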

How the data were processed

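The 8 arrays were deposited as linear intensity values, 1 per probe set. GCOS 1.4 is the software named for them, per the submitters' processing notes, and the sources used here do not give its settings. Without the outer 2% at each end, every deposited column averaged an intensity of about 249.9. Every column had a sample (0 without), and 64 control probe sets were left out. Of 45101 probe sets, 34945 had 1 symbol, 932 several and 9160 none, and only the first were named.

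For each gene 1 probe set was kept, that of highest average log2 value, and it was tested in a cell type where its average over those 4 arrays reached the 40th percentile. Log2(value + 14.2), 14.2 being the 25th percentile of all values, was fitted in 1 linear model of 4 group means (limma 3.58.1, R 4.3.3) and moderated by eBayes with a trend on signal (residual degrees of freedom 4, median prior 4.80), with Benjamini-Hochberg adjustment over all genes tested and a threshold of 0.05. The spread is thereby pooled over cell types. Arrays give no counts, so their number limits the precision. Duplicate arrays shared no identical values and correlated at 0.980 to 0.987. With 2 arrays a group, permutation and outlier tests were not used.

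The genes, roles, lists and tests were chosen with earlier results of these data known. Genes named in the text were, per role and comparison, up to 6 called per direction and up to 3 uncalled with the highest mean, those called in both cell types, up to 8 per direction for the difference between effects and between controls, up to 8 with opposed probe sets, and up to 4 called per list and comparison, after Zfx; others were chosen after their values were seen. Scripts were tested on simulated data. Alternatives covered the pseudocount, scaling, filter, choice of probe set, arrays in the fit, variance prior, replicate block and each array left out; fitting all probe sets together was added after seeing the data.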

Additional observations from a re-analysis of the deposited data

Results flagged for a closer look

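A difference between the Zfx effects of the 2 cell types that passed the test (limma, adjusted p under 0.05 over 11175 genes) was found for 23 of 69 genes (33.3%), against 35.3% of all genes tested. Each value is the HSC effect minus the ESC effect on the log2 scale, with 2 arrays a group. A lower effect in HSC was measured for Snrpb2 (-0.31), Snrpd3 (-0.54), Sf3a3 (-0.29) and Sf3b4 (-0.41) among the Sm, U1, U2 and SF3 proteins. Among LSm and Prpf proteins it was measured for Lsm2 (-0.39), Lsm6 (-0.47), Prpf19 (-0.33), Prpf31 (-0.51), Prpf4b (-0.54) and Prpf6 (-0.38), and among SR proteins for Srsf10 (-0.39), Srsf2 (-0.71) and Srsf9 (-0.40). Of the hnRNPs it was measured for Hnrnpd (-0.38), Hnrnph2 (-0.66), Hnrnpll (-1.23), Hnrnpul1 (-0.37) and Hnrnpul2 (-0.38). A higher effect in HSC was measured for Prpf38b (0.34), Prpf40b (0.97), Srsf5 (0.37), Hnrnpa1 (0.44) and Hnrnph3 (0.78). Of the 23 genes, 2 (Hnrnpll and Hnrnph2) passed under every alternative run; 13 failed when all probe sets were averaged. Leaving out arrays 1 at a time ended 10 of the calls: Snrpb2 without any array other than ESC Zfx-null replicate 2 and HSC Zfx-cko replicate 2 (adjusted p 0.0702 to 0.134); Sf3a3 without any array other than HSC Zfx-flox replicate 1 (adjusted p 0.0691 to 0.167); Sf3b4 without ESC Zfx-flox replicate 1, ESC Zfx-null replicate 2, HSC Zfx-flox replicate 1 and HSC Zfx-cko replicate 1 and 2 (adjusted p 0.0616 to 0.0919); Lsm2 without ESC Zfx-flox replicate 1 and 2, ESC Zfx-null replicate 1, HSC Zfx-flox replicate 1 and HSC Zfx-cko replicate 1 (adjusted p 0.0568 to 0.0922); Srsf10 without any array other than ESC Zfx-null replicate 2 (adjusted p 0.0528 to 0.101); Hnrnpul2 without HSC Zfx-flox replicate 2 (adjusted p 0.0598); Prpf38b without ESC Zfx-flox replicate 2, HSC Zfx-flox replicate 2 and HSC Zfx-cko replicate 1 and 2 (adjusted p 0.0504 to 0.0588); Prpf40b without ESC Zfx-flox replicate 1, ESC Zfx-null replicate 2, HSC Zfx-flox replicate 1 and HSC Zfx-cko replicate 2 (adjusted p 0.0681 to 0.0811); Hnrnpa1 without any array other than ESC Zfx-flox replicate 1 and ESC Zfx-null replicate 2 (adjusted p 0.0516 to 0.0813); Hnrnph3 without any array other than ESC Zfx-null replicate 1 and HSC Zfx-cko replicate 1 (adjusted p 0.0702 to 0.132).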

How the results depend on the processing

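Across 21 alternatives, 5 of 22 ESC calls passed every time (Sf3b5, Lsm4, Lsm2 and Prpf3 lower, Hnrnpll higher), as did 14 of 43 HSC calls and 2 of 23 differences; the medians of the changes stayed negative in both cell types. Among the genes picked from the lists of other splicing genes, 12 of 23 ESC calls, 26 of 40 HSC calls and 14 of 35 differences passed every time. Averaging all probe sets ended 7 of those 23, 10 of those 40 and 17 of those 35. Counts below are given as members higher or lower. With arrays centred on their medians, ESC had 1 higher and 7 lower, HSC 1 higher with a median of -0.32, and no difference was higher (0). Centring moved the HSC median of all genes too, to -0.07, so the members lay -0.255 from it, as under the main settings. Quantile normalization gave an HSC median of -0.18 over all arrays and -0.19 within cell types, and over all arrays 9 genes at least 2-fold higher in HSC controls. The HSC median of the members then lay -0.14 from that of all genes under either form, in place of -0.255. A filter at the 60th percentile gave 4 higher in ESC. Averaging all probe sets gave 4 higher in ESC, 8 higher and 27 lower in HSC with a median of -0.20, 9 lower differences and 7 genes at least 2-fold higher in HSC controls. Without a variance trend ESC had 1 higher and 6 lower, HSC 1 higher and 26 lower, and differences were 1 higher and 7 lower. With only the arrays of a cell type, ESC had 1 higher and 11 lower. Leaving out 1 array gave 1 to 3 higher and 10 to 14 lower in ESC (median -0.16 to -0.10), 0 to 6 higher and 24 to 37 lower in HSC (median -0.23 to -0.20), and 1 to 6 higher and 13 to 17 lower differences. Fitting all probe sets together, added after seeing the data, gave 2 and 14 in ESC, 4 and 34 in HSC and 4 and 17 for differences. Replicate numbers are shared only as numbers (deviation correlation 0.306 in ESC, 0.0768 in HSC); with the replicate block, ESC had 3 higher and 30 lower, HSC 8 and 39, and differences 10 and 22.

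Among the genes named, values that were called neither before nor after changed sign 206 times over the comparisons and alternatives. Values that turned sign and passed the test under the main settings or the alternative did so when all probe sets were averaged, for a cause that was not tested. In HSC these were Snrpc 0.17, Snrpg -0.31, Hnrnpab -0.24, Hnrnpa2b1 0.20, Hnrnpf -0.35, Zcrb1 0.014, Dcp2 -0.033 and Patl1 -0.12; in ESC Sf3a1 0.038 and Ddx6 -0.32; among differences Snrpd3 0.31, Prpf4b 0.20, Lsm1 0.60, Hnrnpa2b1 0.35, Hnrnpf -0.20, Celf2 0.40, Dcp2 -0.011 and Patl1 -0.15. Signals near 14.2 give no usable fold, which limits Srsf12 in HSC.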
